A study of Homo sapiens with 24 samples.

Results

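PGD, PGLS, TALDO1, TKT, RPIA, ME1, IDH1, IDH2 and NADK encode enzymes of the pentose phosphate pathway and of cytosolic or mitochondrial NADPH supply. They were picked by gene symbol, and all 9 were found among the 28307 genes of the count table. All 9 passed the filter on low counts in every comparison. The libraries came from the breast cancer line SUM159 and the colon cancer line SW620, each held in adherent culture for 30 h with Nifuroxazide (NIF), a nitrofuran antibiotic, or with its vehicle DMSO. Cells were then sorted with the ALDEFLUOR assay, which reads aldehyde dehydrogenase (ALDH) activity, into ALDHbr cells of high activity, labelled as cancer stem cells, and ALDHneg cells of low activity, labelled as non-cancer stem cells. The 8 groups were SUM159 ALDHbr under DMSO, SUM159 ALDHbr under NIF, SUM159 ALDHneg under DMSO, SUM159 ALDHneg under NIF, and the same 4 of SW620. Each group held 3 libraries, which the study describes as separate experiments, and 1 cell line stood for each tumour type. No gene was deleted or overexpressed in any group, and the labels give a stock concentration of NIF but no final one.

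The pentose phosphate pathway draws on glucose phosphate. Its oxidative branch makes NADPH and ribulose phosphate, through a lactonase, PGLS, and a dehydrogenase, PGD, among others. The non-oxidative branch turns pentose phosphates back into sugars of glycolysis. In it RPIA interconverts ribulose and ribose phosphates, the latter a building block of nucleotides, while TKT (transketolase) and TALDO1 (transaldolase) move carbon units between sugars. NADPH is also made outside the pathway by malic enzyme (ME1, cytosol) and by the NADP-linked isocitrate dehydrogenases (IDH1 in cytosol and peroxisomes, IDH2 in mitochondria), while NADK phosphorylates NAD to NADP. Cells spend NADPH on reducing glutathione and thioredoxin and on making fatty acids and sterols. Several of these genes, PGD, TALDO1, TKT and ME1 among them, are known targets of NRF2, a transcription factor that binds antioxidant response elements.

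On GRCh38.p14, PGD lay at chr1:10399064-10420511, PGLS at chr19:17511649-17521288, TALDO1 at chr11:747464-765012, TKT at chr3:53224712-53256022 and RPIA at chr2:88691673-88750929. ME1 lay at chr6:83210402-83431051, IDH1 at chr2:208236227-208255071, IDH2 at chr15:90083045-90102468 and NADK at chr1:1751232-1780514. RefSeq places a long non-coding RNA gene over part of PGLS, RPIA, IDH2 and NADK. Only that of IDH2 (IDH2-DT) had a row of its own in the table, with 0 to 12 reads per library, at most 0.279% of the IDH2 reads.

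The core of the antioxidant response element, TGACNNNGC, was sought on both strands of the RefSeq promoter windows of these genes (GRCh38.p14), which run from 250 bases before to 50 bases after a start site. All 9 genes matched a window, 12 windows in all, and 3 windows (PGD, ME1 and IDH1) held the core. Among all 35116 windows of RefSeq genes 13.3% held it. The matches upstream of the start sites are printed below in the direction of the gene with the core in capitals. In PGD the core stood on the opposite strand, so that the capitals show its reverse complement.
PGD, chr1:10398853-10398881, plus strand: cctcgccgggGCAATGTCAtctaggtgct
ME1, chr6:83431170-83431198, minus strand: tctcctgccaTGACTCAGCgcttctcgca
IDH1, chr2:208255196-208255224, minus strand: cccctctcgcTGACTCCGCccatcccacg
The core began 201 bases upstream of the start in PGD, 137 bases upstream in ME1 and 143 bases upstream in IDH1. ME1 held a further match on the opposite strand, 11 bases after its start. A match of letters describes the window and is not a binding site.

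Total counts per library ran from 30253187 to 43127948, and the 9 genes together took 0.16% to 0.298% of them. The lowest count of any of the 9 genes in any library was 870, so that low depth did not limit them. Defining markers fitted the line labels. Of 10 mesenchymal markers 9 averaged at least 1 CPM (reads scaled to library size) in SUM159 and 1 in SW620, where TWIST1 was at 0 throughout, and of 10 colon epithelial markers 8 did in SW620 and 2, KRT8 and KRT18, in SUM159. CDX2, a defining colon factor, was low in SW620, at 0.184 to 2.08 CPM. Of 5 blood and endothelial markers LYZ alone averaged 1 CPM or more, in SW620, at 1180 to 1630 CPM, and PTPRC and CD3E reached at most 1 read in a SW620 library. SUM159 ALDHbr DMSO replicate 3 stood apart in genes that SW620 expresses. There KRT20 had 75 reads against at most 1 in the 11 other SUM159 libraries, or at most 0.514% of a SW620 level, and EPCAM (87 reads), CDH1 (68) and LYZ (171) also peaked. Their part in the results was not tested, but leaving this library out moved no count of the 9 genes called by over 1.5 times. ALDH1A1, a gene for an ALDH enzyme, averaged 135 ± 27.7 CPM in SUM159 ALDHbr cells under DMSO against 0.48 ± 0.0618 CPM in ALDHneg cells (SD, n = 3). In SW620 the sorted populations were closer in ALDH1A1, at 1310 ± 51.3 and 901 ± 19.3 CPM. ALDH1A3, the other ALDH gene checked, went the other way in SW620, at 138 ± 5.35 CPM in ALDHbr and 177 ± 4.66 CPM in ALDHneg cells. In SUM159 it was low, at 0.62 ± 0.233 and 0.202 ± 0.0655 CPM. SW620 ALDHbr DMSO replicate 2 also stood apart, since leaving it out raised the genes called between the sorted populations from 1577 to 5487. The calls of the 9 genes in comparisons that use it are also given without it, and those of other named genes are not.

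The first question was which of these genes changed under NIF in each sorted population. In SW620 ALDHbr cells 6 of the 9 genes rose under NIF and 2 fell. PGD, PGLS, TALDO1, TKT, ME1 and IDH1 rose, RPIA and IDH2 fell, and NADK did not pass the test. PGD and ME1 rose in SUM159 ALDHbr cells and 0 fell (at an unadjusted p under 0.05 IDH2 did, and DESeq2 called PGD and ME1 alone). These calls are adjusted p-values under 0.05 from edgeR's quasi-likelihood test, corrected over all genes tested. In SW620 ALDHbr cells 43.3% of 13953 genes were called, 21.4% higher and 21.9% lower. The background in SUM159 ALDHbr cells was 3.16% of 14953 genes, 0.936% called higher and 2.23% lower. At an unadjusted p under 0.05 it was 16.7%. The median log2 fold change of the 9 genes was 0.29 in SW620 and 0.13 in SUM159, beside -0.01 and 0 over all genes. In RNA from a sorted pool, fewer cells of a type and less RNA per cell cannot be told apart.

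**Figure D1:**
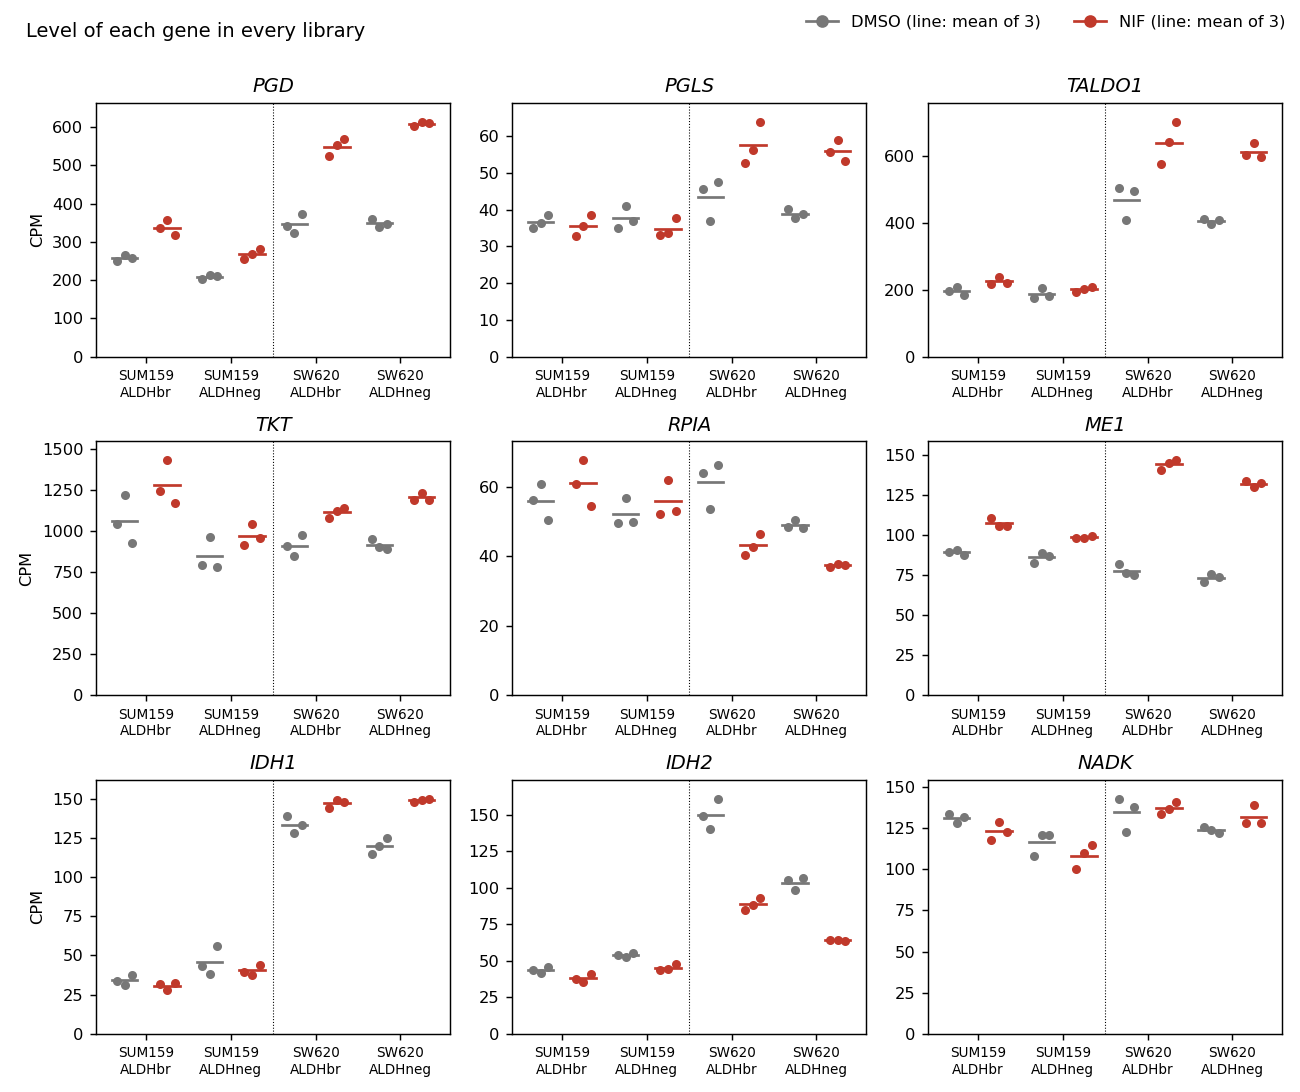
Level of each gene in CPM scaled within its line (vertical axes start at 0) in all 24 libraries, grouped by cell line and sorted population; points are libraries, horizontal lines the means of 3, grey DMSO and red NIF. In SW620 the red points of PGD, TALDO1, TKT, ME1, PGLS and IDH1 lie above the grey ones and those of RPIA and IDH2 below them in both populations. Of all genes tested in SW620, 45% in ALDHbr and 63.5% in ALDHneg cells had no overlap between DMSO and NIF.

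ME1 changed most among the genes that rose in SW620 ALDHbr cells. Its level there was 82.3, 76.2 and 75.5 CPM under DMSO and 141, 145 and 147 CPM under NIF. The groups lay far apart, a rise of 1.85-fold (log2 fold change 0.88 ± 0.05, SE, adjusted p = 9.91e-09 by edgeR). SUM159 ALDHbr cells went from 89.4, 90.9 and 87.7 CPM of ME1 to 111, 106 and 106 CPM. That rise was 1.20-fold (0.26 ± 0.05, adjusted p = 0.00895), less than that of PGD, with no overlap but a much smaller gap. Of all genes in these cells 23.2% had no overlap. Under DMSO the lines did not differ detectably in ME1, at 83.9 ± 1.52 CPM in SUM159 ALDHbr and 82.9 ± 3.86 CPM in SW620 ALDHbr cells (SD, n = 3, scaled over all 24 libraries). The 95% interval of that log2 difference ran from -0.11 to 0.08 (with library sizes alone as the scale the value was -0.17, adjusted p = 0.00212).

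In the oxidative branch PGD, which makes the NADPH of the step to ribulose phosphate, rose in both lines. It stood in SUM159 ALDHbr cells at 249, 266 and 257 CPM under DMSO and at 337, 357 and 318 CPM under NIF, 1.31-fold higher (log2 fold change 0.39 ± 0.06, adjusted p = 0.00179). SW620 ALDHbr cells went from 341, 322 and 374 CPM to 525, 552 and 569 CPM, a rise of 1.59-fold (0.67 ± 0.06, adjusted p = 4.74e-07). Every NIF library was above every DMSO library in each line, as was so for 11% of all genes in SUM159 and 22.5% in SW620. PGLS, the lactonase before PGD, was called in SW620 alone. In ALDHbr cells of that line it read 45.7, 36.8 and 47.6 CPM under DMSO and 52.7, 56.2 and 63.9 CPM under NIF (0.41 ± 0.09, adjusted p = 0.00255). The SUM159 ALDHbr values of PGLS, 35 to 38.6 CPM under DMSO and 32.7 to 38.4 CPM under NIF, overlapped (-0.04 ± 0.08, adjusted p = 0.854).

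Transaldolase and transketolase of the non-oxidative branch also rose in SW620 ALDHbr cells. TALDO1 went from 504, 409 and 497 CPM to 576, 643 and 704 CPM (log2 fold change 0.45 ± 0.08, adjusted p = 0.000514). TKT went from 905, 850 and 972 CPM to 1080, 1120 and 1140 CPM (0.29 ± 0.05, adjusted p = 0.000564). Neither gene's DMSO and NIF libraries overlapped, as was so for 45% of all genes. The SUM159 ALDHbr values of TALDO1 were 197, 210 and 186 CPM under DMSO and 219, 238 and 222 CPM under NIF (0.19 ± 0.07, adjusted p = 0.156). TKT there read 1040, 1220 and 925 CPM and then 1240, 1430 and 1170 CPM (0.27 ± 0.11, adjusted p = 0.215). These DMSO and NIF values of TKT overlapped, although each NIF library exceeded the DMSO library of its own replicate number, by 0.25, 0.23 and 0.34 on the log2 scale.

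In SUM159 libraries of the same replicate number deviated together. With the replicate number as a block 5 of the 9 genes were called in SUM159 ALDHbr cells, beside 1994 of all genes. TALDO1 (adjusted p = 0.0096) and TKT (adjusted p = 0.000495) joined the genes that rose, and IDH2 (adjusted p = 0.0153) was called lower.

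RPIA, on the branch's side towards ribose phosphate, moved against its neighbours in SW620. Its level in ALDHbr cells fell from 64, 53.7 and 66.3 CPM under DMSO to 40.5, 42.6 and 46.5 CPM under NIF (log2 fold change -0.51 ± 0.08, adjusted p = 9.88e-05). The highest NIF library lay below the lowest DMSO library. Those of SUM159 were 56.2, 60.9 and 50.6 CPM and then 60.8, 67.7 and 54.5 CPM, which overlapped (0.13 ± 0.09, adjusted p = 0.554).

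The isocitrate dehydrogenases went apart in SW620. Mitochondrial IDH2 fell in ALDHbr cells from 149, 140 and 161 CPM to 85, 88.2 and 93.1 CPM, to 0.592 of its DMSO level (log2 fold change -0.76 ± 0.06, adjusted p = 2.36e-07). Cytosolic IDH1 went from 139, 128 and 133 CPM to 144, 149 and 148 CPM (0.14 ± 0.05, adjusted p = 0.0324). The IDH1 call was lost in 8 of 14 alternatives, with adjusted p-values up to 0.242. Among these were the fits without SW620 ALDHbr DMSO replicate 3 (adjusted p = 0.066), without SW620 ALDHbr NIF replicate 2 (adjusted p = 0.104) and without SW620 ALDHbr NIF replicate 3 (adjusted p = 0.0642). IDH2 of SUM159 ALDHbr cells read 43.6, 41.4 and 45.9 CPM under DMSO and 37.8, 35.2 and 41 CPM under NIF (-0.20 ± 0.07, adjusted p = 0.146). These values did not overlap, as was so for 23.2% of all genes in those cells. IDH1 there read 33.6, 31 and 37.7 CPM and then 31.7, 28.2 and 32.2 CPM (-0.15 ± 0.12, adjusted p = 0.587), with overlap.

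NADK, which supplies NADP itself, was not called in any of the 4 comparisons of NIF with DMSO, though a fit of the SW620 ALDHneg groups alone called it higher (0.10, adjusted p = 0.0351). Its SW620 ALDHbr libraries lay at 143, 123 and 138 CPM under DMSO and at 134, 137 and 141 CPM under NIF. The 95% interval of its log2 fold change ran from -0.09 to 0.15 there and from -0.22 to 0.04 in SUM159 ALDHbr cells.

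Without SW620 ALDHbr DMSO replicate 2 all 8 calls in SW620 ALDHbr cells stood, beside 7136 of 14147 genes. The log2 fold changes were then 0.88 for ME1, 0.63 for PGD, 0.37 for TALDO1, 0.32 for PGLS, 0.26 for TKT, -0.58 for RPIA and -0.79 for IDH2. IDH1 was at 0.13 (adjusted p = 0.0455 by edgeR), and NADK, not called, at -0.02.

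ALDHneg cells of SW620 gave the same 8 calls as ALDHbr cells, 6 higher and 2 lower, where 45.1% of 13953 genes were called, 22.3% higher and 22.7% lower. ME1 went from 70.7, 75.7 and 74 CPM to 134, 130 and 133 CPM (log2 fold change 0.85 ± 0.05). PGD went from 359, 340 and 347 CPM to 602, 614 and 611 CPM (0.80 ± 0.06). IDH2 went from 105, 98.5 and 107 CPM to 64.2, 64.5 and 63.8 CPM (-0.69 ± 0.06). The NIF libraries were tight and far from the DMSO libraries for all 3 genes, and 63.5% of all genes had no overlap there. The other log2 fold changes were 0.59 ± 0.08 for TALDO1, 0.52 ± 0.09 for PGLS, 0.39 ± 0.05 for TKT, 0.31 ± 0.05 for IDH1 and -0.39 ± 0.08 for RPIA. The 8 adjusted p-values ran from 1.24e-08 for ME1 to 0.000759 for RPIA by edgeR.

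In SUM159 ALDHneg cells only PGD was called, where 3.3% of all genes were called, 1.1% higher and 2.2% lower. It rose from 203, 213 and 211 CPM to 255, 267 and 282 CPM (log2 fold change 0.36 ± 0.06, adjusted p = 0.00397). ME1 went from 82.9, 89.2 and 87.3 CPM to 98.6, 98.5 and 99.3 CPM without overlap and just missed the threshold (0.19 ± 0.05, adjusted p = 0.0515). IDH2 read 53.7, 52.5 and 55.6 CPM and then 43.6, 44.2 and 48.1 CPM, also without overlap (-0.25 ± 0.07, adjusted p = 0.0638). Of all genes 19.7% had no overlap in this comparison. With the replicate block 4 genes were called in these cells, where calls over all genes went from 493 to 1970, PGD, ME1 (adjusted p = 0.00742) and TKT (adjusted p = 0.00542) higher and IDH2 lower (adjusted p = 0.00231). ME1 was also called without SUM159 ALDHneg DMSO replicate 2 (adjusted p = 0.0401).

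**Figure D2:**
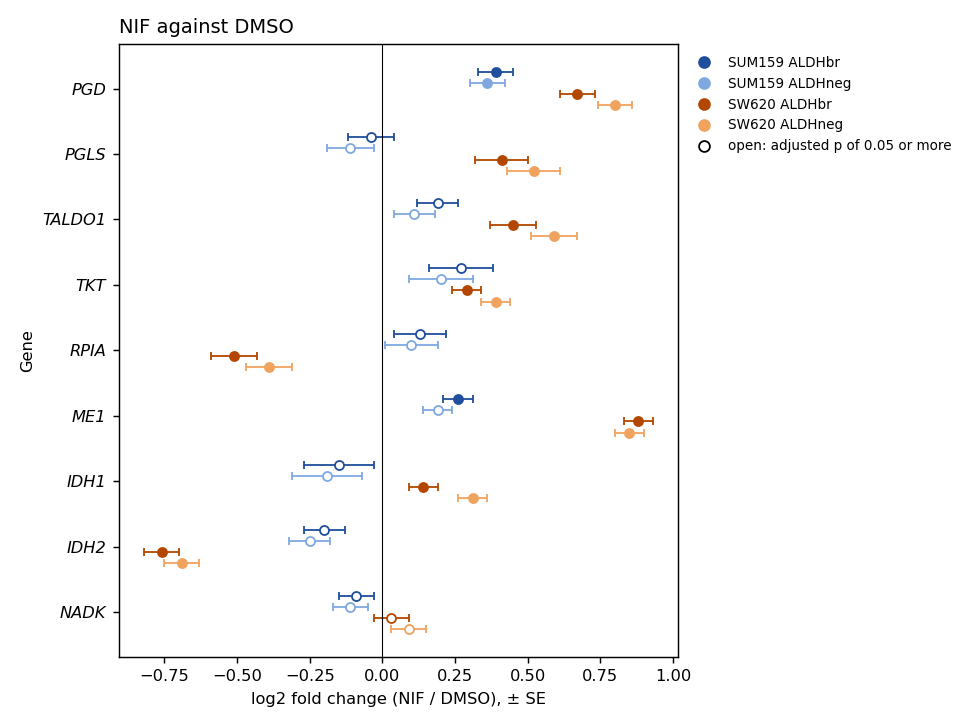
Log2 fold change of NIF against DMSO (horizontal axis) with its SE (bars) for each of the 9 genes in the 4 sorted populations, 3 libraries against 3; filled points passed an adjusted p of 0.05 and open points did not. ME1, PGD, TALDO1 and PGLS of SW620 stand to the right, RPIA and IDH2 of SW620 to the left, and NADK near 0.

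The design also asks whether NIF acted differently in ALDHbr and ALDHneg cells. No gene of the 9 passed the test of that difference by edgeR in either line, where 0 of 14953 genes in SUM159 and 1 of 13953 genes in SW620 (0.00717%) did. At an unadjusted p under 0.05 there were 0 of the 9 in SUM159 and 1, IDH1, in SW620, and DESeq2 called 0 in each. Over all genes 1.59% in SUM159 and 5.53% in SW620 passed an unadjusted 0.05, and DESeq2 called 2 and 29. In SW620 edgeR called 0 of the 9 and 27 of all genes without SW620 ALDHbr DMSO replicate 2. The IDH1 difference in SW620 was -0.17 ± 0.07 on the log2 scale, with a 95% interval from -0.31 to -0.03 and an adjusted p of 0.853. For ME1 the interval ran from -0.10 to 0.18 in SW620 and from -0.07 to 0.21 in SUM159. For PGD it ran from -0.30 to 0.02 in SW620 and from -0.13 to 0.20 in SUM159. TKT and IDH1 in SUM159 left the widest intervals, from -0.23 to 0.37 and from -0.30 to 0.37. These intervals ignore the pairing by replicate number in SUM159. By pair, the NIF change of TKT was 0.25, 0.23 and 0.34 in ALDHbr and 0.2, 0.11 and 0.3 in ALDHneg cells. With the replicate number as a block, 0 of the 9 and 6 of all genes passed in SUM159.

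Between the lines the NIF response did differ. In ALDHbr cells 5 of the 9 genes responded differently in SW620 than in SUM159 (23.1% of 16271 genes did, 12.4% higher and 10.7% lower). ME1 responded more in SW620 by 0.62 ± 0.07 on the log2 scale (adjusted p = 4.7e-07), PGLS by 0.45 ± 0.13 (adjusted p = 0.0131) and PGD by 0.27 ± 0.08 (adjusted p = 0.017). The response of RPIA was lower in SW620 by a difference of -0.64 ± 0.13 (adjusted p = 0.000719) and that of IDH2 by -0.56 ± 0.09 (adjusted p = 7.91e-05). The interval of the TKT difference ran from -0.23 to 0.28. In ALDHneg cells 7 genes differed (22.4% of all genes did, 11.9% higher and 10.5% lower). They held the 5 of ALDHbr cells, with PGD at 0.46 ± 0.08, PGLS at 0.64 ± 0.13, ME1 at 0.66 ± 0.07, RPIA at -0.49 ± 0.13 and IDH2 at -0.43 ± 0.09, and also TALDO1 at 0.49 ± 0.11 and IDH1 at 0.51 ± 0.13. Without SW620 ALDHbr DMSO replicate 2 the 5 calls in ALDHbr cells stood, beside 4641 of 16555 genes. The differences were then 0.60 for ME1, 0.35 for PGLS, 0.23 for PGD, -0.72 for RPIA and -0.60 for IDH2. Line and tumour type cannot be told apart with 1 line of each. The paper lists final drug concentrations by cell line, in a supplement not among the sources used here. A difference in NIF dose therefore cannot be told apart from line either.

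A second question was how the sorted populations differed from each other. Under DMSO, SUM159 ALDHbr cells had more PGD and TKT and less IDH1 and IDH2 than ALDHneg cells, and SW620 ALDHbr cells had more IDH2 and RPIA. The background was 23% of genes called in SUM159, 10.7% higher and 12.3% lower, and 11.3% in SW620, 5.45% higher and 5.86% lower. IDH2 of SUM159 read 43.6, 41.4 and 45.9 CPM in ALDHbr and 53.7, 52.5 and 55.6 CPM in ALDHneg cells (log2 fold change -0.31 ± 0.07, adjusted p = 0.00495). In SW620 the order was turned, at 149, 140 and 161 CPM in ALDHbr and 105, 98.5 and 107 CPM in ALDHneg cells (0.53 ± 0.06, adjusted p = 6.82e-05). Neither line's populations overlapped in IDH2, as was so for 36.6% of all genes in SUM159 and 28.3% in SW620.

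The difference between these IDH2 contrasts was 0.84 ± 0.09 (SW620 minus SUM159, adjusted p = 3.33e-07), in a test added after the values had been seen. That test called 3 of the 9 genes under DMSO (19.1% of all genes, 9.02% higher and 10.1% lower), with IDH1 at 0.58 ± 0.13 (adjusted p = 0.00302) and PGD at -0.31 ± 0.08 (adjusted p = 0.00991). Without SW620 ALDHbr DMSO replicate 2 these were 0.88 for IDH2, 0.61 for IDH1 and -0.26 for PGD, all called, beside 4586 of 16555 genes.

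IDH1 of SUM159 read 33.6, 31 and 37.7 CPM in ALDHbr cells and 43.4, 38.3 and 56.1 CPM in ALDHneg cells under DMSO (log2 fold change -0.43 ± 0.12, adjusted p = 0.0167). The spread of the latter, 20% of the mean, was the widest of the 9 genes over the 8 groups. Without SUM159 ALDHneg DMSO replicate 3, the high library, the value was -0.26 (adjusted p = 0.0842). The IDH1 call was also lost without SUM159 ALDHbr DMSO replicate 1 (-0.42, adjusted p = 0.0539) and replicate 2 (-0.37, adjusted p = 0.0778). In SW620 IDH1 read 139, 128 and 133 CPM in ALDHbr and 115, 120 and 125 CPM in ALDHneg cells (0.15 ± 0.05, adjusted p = 0.0643). These values did not overlap, as was so for 28.3% of all genes.

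PGD of SUM159 was higher in ALDHbr cells by 0.30 ± 0.06 on the log2 scale under DMSO (adjusted p = 0.00182), at 249 to 266 CPM against 203 to 213 CPM. TKT was higher by 0.33 ± 0.11 (adjusted p = 0.0387), at 1040, 1220 and 925 CPM against 793, 964 and 778 CPM, which overlapped. The TKT call was lost without any of 4 libraries in turn. Without SUM159 ALDHbr DMSO replicate 1, without replicate 2 of the same group or without SUM159 ALDHneg DMSO replicate 3, 2 of the 9 genes were called in place of 4. SUM159 ALDHbr DMSO replicate 3, which held the KRT20 reads, was not among these. Over all genes, the fits of this comparison with 1 library left out called 2543 to 3136, in place of 3432. With the replicate block NADK was called higher as well (0.17, adjusted p = 0.0112). In SW620, PGD and TKT did not differ detectably, with intervals from -0.12 to 0.10 and from -0.11 to 0.10.

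RPIA of SW620 was higher in ALDHbr cells under DMSO by 0.32 ± 0.07 (adjusted p = 0.0152), at 64, 53.7 and 66.3 CPM against 48.4, 50.5 and 48.2 CPM. Replicate 2, which stood apart, is its lowest ALDHbr value. Without SW620 ALDHbr DMSO replicate 2, 6 of the 9 genes were called higher in ALDHbr cells, with PGLS, TALDO1, IDH1 and NADK added. Over all genes 5487 were then called in either direction, in place of 1577, and IDH2 was at 0.57 and RPIA at 0.40. Without SW620 ALDHbr DMSO replicate 1 or 3, or SW620 ALDHneg DMSO replicate 1 or 3, IDH2 alone was called, among 712 to 772 genes.

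Under NIF the same 4 genes differed between the populations of SUM159 (21.9% of genes did, 9.95% higher and 12% lower) and IDH2 alone in SW620 (6.67% of genes did, 3.41% higher and 3.26% lower). These comparisons share no library with those under DMSO, but they are not independent repeats of them. Both came from the same fit of each line, and in SUM159 libraries of the same replicate number deviated together. PGD of SUM159 stood at 337, 357 and 318 CPM in ALDHbr and 255, 267 and 282 CPM in ALDHneg cells (log2 fold change 0.33 ± 0.06, adjusted p = 0.000809). TKT was higher by 0.40 ± 0.11 (adjusted p = 0.0152), IDH1 lower at -0.40 ± 0.12 (adjusted p = 0.028) and IDH2 lower at -0.25 ± 0.07 (adjusted p = 0.0171). None of the 4 overlapped between populations, as was so for 38.1% of all genes. IDH2 of SW620 was higher in ALDHbr cells, at 85, 88.2 and 93.1 CPM against 64.2, 64.5 and 63.8 CPM (0.47 ± 0.06, adjusted p = 0.000292).

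With the replicate block 7 genes were called in SUM159 under NIF, with TALDO1, ME1 and NADK higher besides, and 5270 of 14953 genes in all in place of 3281. Without SUM159 ALDHbr NIF replicate 2 only PGD was called, and without SUM159 ALDHneg NIF replicate 1 PGD and IDH2 were. Without SUM159 ALDHbr NIF replicate 1 or SUM159 ALDHneg NIF replicate 3, IDH1 (adjusted p = 0.0601 and 0.11 by edgeR) and IDH2 (adjusted p = 0.0563 and 0.0794) were lost and NADK was called. Thus the IDH1 call under NIF was lost without any of 4 libraries and the IDH2 call without any of 3. Over all genes, the fits of this comparison with 1 library left out called 2371 to 2951, in place of 3281. The added test of the difference between lines called PGD at -0.49 ± 0.08, TKT at -0.51 ± 0.13 and IDH2 at 0.71 ± 0.09 under NIF (3 of 9 genes and 13.6% of all genes, 7.12% higher and 6.44% lower).

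**Figure D3:**
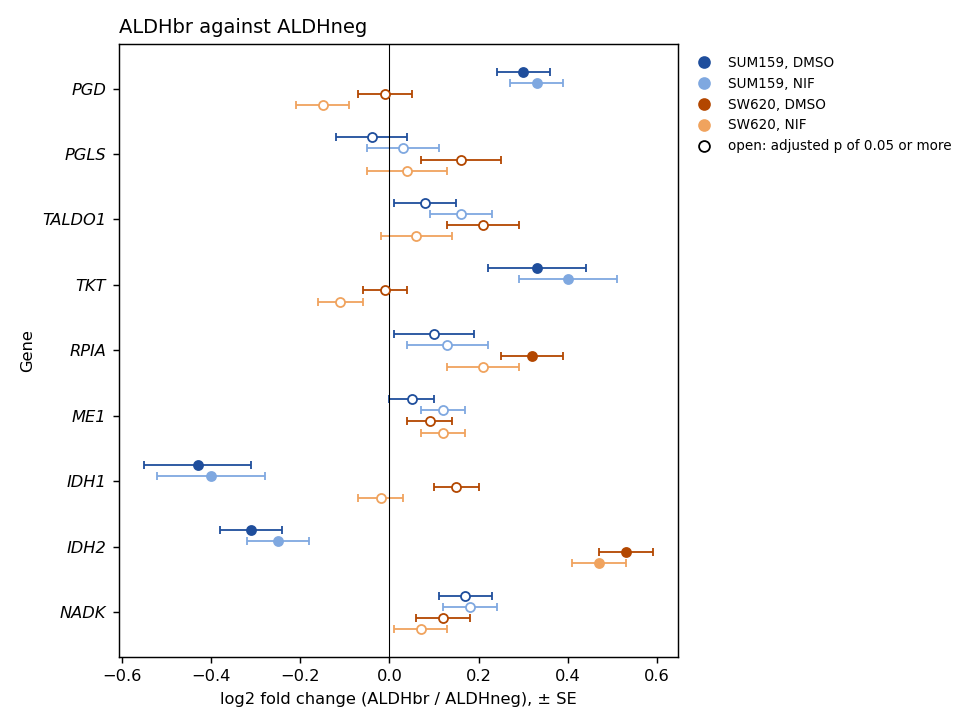
Log2 fold change of ALDHbr against ALDHneg cells (horizontal axis) with its SE (bars) for each of the 9 genes, in each line under DMSO and under NIF, 3 libraries against 3; filled points passed an adjusted p of 0.05. IDH2 lies left of 0 in SUM159 and right of 0 in SW620 under both treatments.

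Between the untreated lines most of these genes stood higher in SW620. Levels here are CPM scaled over all 24 libraries, and most genes of the table differed. Of all genes 81.3% differed between the ALDHbr cells of the lines, 39.6% higher in SW620 and 41.7% lower, and 81.2% between the ALDHneg cells, 38.5% higher and 42.7% lower. IDH1 was 4.43-fold higher in SW620 than in SUM159 ALDHbr cells, at 142 ± 5.45 against 32 ± 3.17 CPM (log2 fold change 2.15 ± 0.10). IDH2 was 3.89-fold higher, at 159 ± 10.8 against 40.9 ± 2.12 CPM (1.96 ± 0.07). TALDO1 was 2.70-fold higher, at 500 ± 55 against 185 ± 11.4 CPM (1.43 ± 0.08). PGD was 1.52-fold higher, at 368 ± 27.1 against 242 ± 8.31 CPM (0.61 ± 0.06). The groups lay well apart in all 4 genes, and 79.9% of all genes had no overlap between these groups. Without SW620 ALDHbr DMSO replicate 2 the log2 differences were 2.18, 2.01, 1.52 and 0.65 in that order.

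In the same comparison PGLS, RPIA and NADK were called at 0.42 ± 0.09, 0.32 ± 0.09 and 0.22 ± 0.06, and TKT (-0.05 ± 0.09) and ME1 were not. This held without that library, where 13246 of 16555 genes were called. Among ALDHneg cells IDH1 was 2.96-fold, TALDO1 2.46-fold, IDH2 2.17-fold and PGD 1.89-fold higher in SW620. PGLS (0.23 ± 0.09), TKT (0.29 ± 0.09) and NADK (0.26 ± 0.06) were called there too, PGLS not without SUM159 ALDHneg DMSO replicate 1 or 3 or SW620 ALDHneg DMSO replicate 1 (0.17 to 0.21, adjusted p = 0.131, 0.0747 and 0.0775). With library sizes alone as the scale, the median log2 difference of all genes was -0.202 in ALDHbr and -0.239 in ALDHneg cells, in place of -0.05 and -0.071. The calls of RPIA and NADK in ALDHbr cells and of PGLS, TKT and NADK in ALDHneg cells were then lost, and ME1 in both and TKT in ALDHbr cells were called lower in SW620.

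Across the 8 groups the order of levels in each gene followed from these contrasts. Scaled over 24 libraries, PGD ran from 196 ± 5.56 CPM in SUM159 ALDHneg cells under DMSO to 651 ± 6.38 CPM in SW620 ALDHneg cells under NIF (SD, n = 3). Of its neighbours in that order, SUM159 ALDHbr under DMSO (242 ± 8.31) and ALDHneg under NIF (251 ± 12.5), and SW620 ALDHbr (368 ± 27.1) and ALDHneg (370 ± 11.4) under DMSO, did not separate beyond their spread. IDH2 ran from SUM159 ALDHbr cells under NIF, at 35.8 ± 2.88 CPM, to SW620 ALDHbr cells under DMSO, at 159 ± 10.8 CPM on the same scale. ME1 had its 4 DMSO groups within 78 ± 2.51 and 83.9 ± 1.52 CPM, each within the spread of the next, though the first and the last did not overlap. Its highest group was SW620 ALDHbr under NIF at 153 ± 3.49 CPM.

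The 9 genes varied together to different degrees. Over 12 libraries of each line, with r a Pearson correlation of log2 CPM that describes libraries sharing groups and scaling, PGD went with TALDO1 (0.859 in SUM159, 0.913 in SW620), TKT (0.871 and 0.988) and ME1 (0.905 and 0.951). IDH2 went against PGD in both lines, at -0.921 and -0.84. RPIA went with PGD in SUM159 (0.678) and against it in SW620 (-0.814). IDH1 went against TKT in SUM159 (-0.921) and with it in SW620 (0.832). PGLS was nearly unrelated to PGD in SUM159 (-0.221) and close to it in SW620 (0.913).

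Among 9229 other genes, those whose log2 CPM followed each of the 9 most closely were found over all 24 libraries after each line was centred on its own mean. ME1 was followed by SQSTM1 (0.98), SRXN1 (0.976) and GCLC (0.975), which encode an autophagy receptor, sulfiredoxin and a subunit of the enzyme that starts glutathione synthesis. PGD was followed by SLC48A1 (0.972), a haem transporter, and NQO1 (0.96), a quinone reductase. TALDO1 was followed by TXN (0.977), thioredoxin, FTL (0.964), ferritin light chain, and SEC61B (0.959). RPIA was followed by LYAR (0.981), ATP5MC3 (0.976) and CCT8 (0.962), and IDH2 by CYB5A (0.968), TNFRSF11A (0.935) and ARHGEF40 (0.93). TKT was followed by MARK3 (0.921), FHOD1 (0.916) and PLEK2 (0.915), and PGLS by B3GAT3 (0.944), CD63 (0.935) and NUCB1 (0.928). The closest genes were less close for IDH1, TMCO3 (0.889), LRRFIP2 (0.876) and RPH3AL (0.869), and for NADK, CETN2 (0.891), DPP3 (0.882) and G6PC3 (0.857). These values pool the lines, and within a line some were lower. In SUM159 PGLS went with B3GAT3 at 0.679 and with CD63 at 0.519 (0.978 and 0.98 in SW620). In SW620 IDH1 went with RPH3AL at 0.695 (0.91 in SUM159).

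Other genes of the surrounding metabolism give the setting of these changes. Of 10 further pentose phosphate genes 7 were tested in SW620, and in ALDHbr cells 1 rose and 3 fell under NIF. Their median log2 fold change was -0.13, beside -0.01 over all genes. In these cells 43.3% of all genes were called, 21.4% higher and 21.9% lower. PRPS1, which makes phosphoribosyl pyrophosphate from ribose phosphate, fell (-0.45 ± 0.06, adjusted p = 2.04e-05), as did SHPK, sedoheptulokinase (-0.39 ± 0.06, adjusted p = 0.000193), and PRPS2, a relative of PRPS1 (-0.37 ± 0.08). SUM159 had 8 of the 10 tested. In its ALDHbr cells, where 3.16% of all genes were called, only H6PD was, which runs the oxidative branch in the endoplasmic reticulum. H6PD fell by 0.54 on the log2 scale (SE 0.12, adjusted p = 0.0177), while in SW620 ALDHbr cells it rose by 0.34 ± 0.12 with overlapping libraries (adjusted p = 0.0428). The difference between the lines in H6PD was 0.88 ± 0.18 (adjusted p = 0.000871).

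Of 8 other genes for NADPH-yielding or NADP-making enzymes 6 were tested in each line. In SW620 ALDHbr cells 1 rose and 2 fell (median -0.16), where 43.3% of all genes were called, 21.4% higher and 21.9% lower. In SUM159 ALDHbr cells 0 were called by edgeR (median -0.06), with 3 at an unadjusted p under 0.05 and 1 called by DESeq2. Of all genes there 16.7% passed an unadjusted 0.05, and DESeq2 called 875 of 14953. MTHFD2, a mitochondrial folate enzyme that uses NAD or NADP, rose from 201 ± 5.73 to 395 ± 10 CPM in SW620 (SD, n = 3, log2 fold change 0.98 ± 0.05, adjusted p = 1.56e-09). MTHFD1, its cytosolic NADP-linked relative, fell by 0.51 on the log2 scale (SE 0.04, adjusted p = 5.58e-07). The NAD-linked relatives of the malic and isocitrate enzymes, 4 genes, had 0 calls in SUM159 ALDHbr cells by edgeR and by DESeq2 (median 0.14), with 2 at an unadjusted p under 0.05. In SW620 ALDHbr cells 2 of them fell, IDH3B (-0.44 ± 0.08, adjusted p = 0.000334) and IDH3G (-0.20 ± 0.07, adjusted p = 0.047), both subunits of the NAD-linked isocitrate dehydrogenase of mitochondria.

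Of 10 glycolytic genes beside the pathway, 2 rose and 5 fell in SW620 ALDHbr cells (median -0.16), where 43.3% of all genes were called. In SUM159 ALDHbr cells 0 of 9 tested were called by edgeR (median 0.10), with 2 at an unadjusted p under 0.05 and 1 called by DESeq2. Of all genes 16.7% passed an unadjusted 0.05 there. HK1, a hexokinase that makes glucose phosphate, rose (0.50 ± 0.05, adjusted p = 1.9e-06), and FBP1, a gluconeogenic phosphatase, fell (-0.77 ± 0.10, adjusted p = 3.8e-05). Of 9 genes for enzymes that spend NADPH, all tested in both lines, 6 rose and 3 fell in SW620 ALDHbr cells. In SUM159 ALDHbr cells 4 rose and 1 fell, where 3.16% of all genes were called. The median was 0.24 in each line. TXNRD1, thioredoxin reductase, went from 658 ± 34.6 to 2080 ± 96.1 CPM in SW620 (log2 fold change 1.66 ± 0.06, adjusted p = 5.66e-11) and from 717 ± 43.1 to 1020 ± 65.8 CPM in SUM159 (0.51 ± 0.09, adjusted p = 0.00409). NQO1 rose by 0.85 ± 0.06 in SW620 (adjusted p = 1.06e-07) and by 0.48 ± 0.12 in SUM159 (adjusted p = 0.0345). TXNRD2, a mitochondrial thioredoxin reductase, and FASN, fatty acid synthase, were among those that fell in SW620, at -0.25 ± 0.09 and -0.57 ± 0.08. In ALDHneg cells of SW620 the NADPH users gave 6 genes higher and 2 lower, and the other pentose phosphate genes 0 higher and 4 lower. Of all genes 45.1% were called there. In ALDHneg cells of SUM159 the NADPH users gave 1 higher and 0 lower (4 called by DESeq2 and 5 at an unadjusted p under 0.05). The other pentose phosphate genes gave 0 higher and 1 lower. Of all genes in these cells 3.3% were called by edgeR, and 16.8% passed an unadjusted 0.05.

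**Figure D4:**
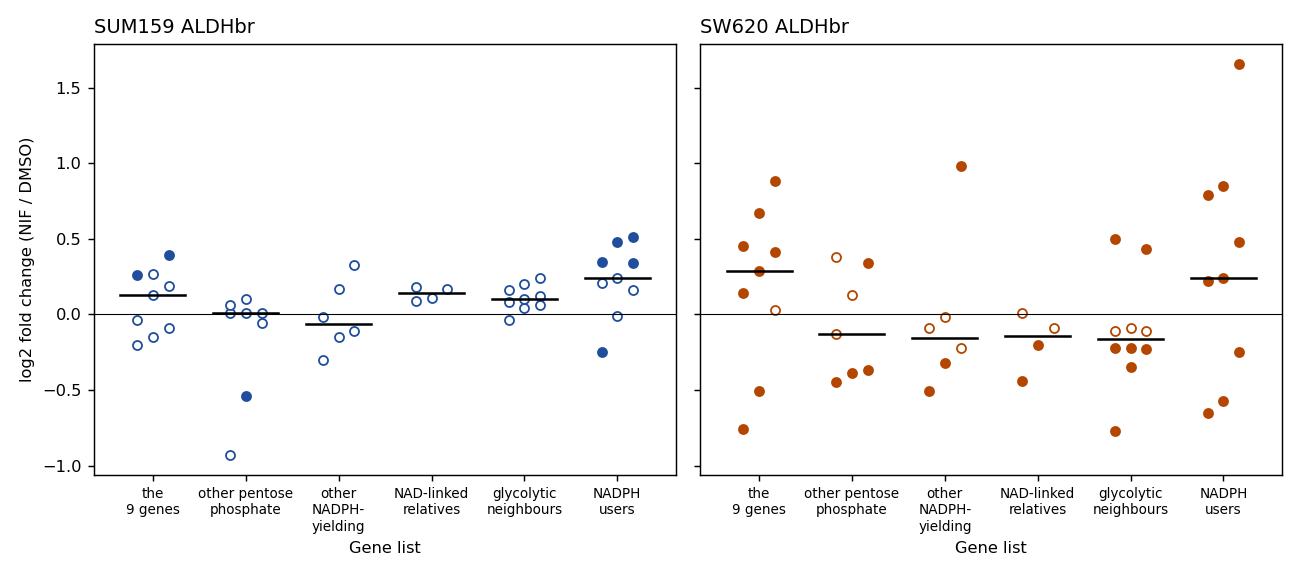
Log2 fold change of NIF against DMSO (vertical axis) in SUM159 (left) and SW620 (right) ALDHbr cells for the 9 genes and the tested genes of 5 lists (horizontal axis); filled points passed an adjusted p of 0.05, open points did not, and the lines are medians. The 9 genes and the NADPH users have medians above 0 in both lines, and the other pentose phosphate, NADPH-yielding, NAD-linked and glycolytic lists have medians below 0 in SW620.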

How the data were processed

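RNA of the 24 libraries was prepared with a stranded total RNA kit. The authors deposited raw counts of reads per gene, as whole numbers without normalization. Per the labels the reads were processed with FastQC, STAR and GRCh38. Versions, the counting tool and the annotation are not given in the sources used here, and shared reads of overlapping genes or near-identical copies are uncertain.

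The fits were made with edgeR 4.0.16 under R 4.3.3. Each line was fitted on its 12 libraries in 4 groups, and comparisons between lines on all 24, after filterByExpr and TMM scaling. Quasi-likelihood tests were adjusted by Benjamini-Hochberg over all genes tested, with a threshold of 0.05. SE is the log2 fold change divided by the square root of F, and 95% intervals are normal ones from it. CPM used TMM-adjusted library sizes, and log2 CPM a prior count of 2. Since the replicates are separate samples of cell lines, p-values measure the spread between them.

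The genes, the lists and the tests were chosen with earlier results of these data known. From each of 5 lists at most 2 called genes of largest absolute log2 fold change per line in ALDHbr cells were named, and PRPS2, TXNRD2 and FASN were named after their values were seen. For each of the 9 genes the 3 genes of highest Pearson correlation were named, among those with mean log2 CPM 3 or more. Some genes are not reported here.

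Same-numbered libraries deviated together in SUM159 (r from 0.125 to 0.451, over 0.1 in 18 of 18 pairs of groups) and not in SW620 (1 of 18), so only in SUM159 did the numbers count as pairs. Replicates of a group differed by more than sampling noise (chi-square per gene 1.95 to 43.1). The alternatives were a replicate block, scaling by RLE or by library size, DESeq2 1.42.0, testing every gene with a count, requiring 10 counts in each library, all 24 libraries in the fit, only the groups compared, a minimum absolute log2 fold change of 1, and each library left out. The steps were tested on simulated counts.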

Additional observations from a re-analysis of the deposited data

Results flagged for a closer look

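All 18 results given here were singled out because the test of a difference between the 2 cell lines passed an adjusted p of 0.05 by edgeR, and their causes were not tested. The NIF response in SW620 minus that in SUM159 (log2 scale) was 0.27 for PGD, 0.45 for PGLS, 0.62 for ME1, -0.64 for RPIA and -0.56 for IDH2 in ALDHbr cells. In ALDHneg cells it was 0.46 for PGD, 0.64 for PGLS, 0.49 for TALDO1, 0.66 for ME1, 0.51 for IDH1, -0.49 for RPIA and -0.43 for IDH2. PGLS and RPIA in both populations, and IDH1 in ALDHneg cells, had estimates of opposite sign in the lines, but none was called in SUM159. The contrast of ALDHbr with ALDHneg cells in SW620 minus that in SUM159 was -0.31 for PGD, 0.58 for IDH1 and 0.84 for IDH2 under DMSO, and -0.49 for PGD, -0.51 for TKT and 0.71 for IDH2 under NIF. Among these 6, IDH2 was called in opposite directions in the lines under both treatments, though in SUM159 under NIF its call was lost without any of 3 libraries.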

How the results depend on the processing

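Of 504 values of single genes for NIF against DMSO under the alternatives, 481 stayed on the same side of the threshold, 8 lost a call (IDH1 of SW620 ALDHbr cells each time) and 15 gained one. No called value changed sign. Values near 0 and not called did so with 1 library left out, NADK of SW620 ALDHbr cells to -0.02 and PGLS of SUM159 ALDHbr cells to 0.01. With the replicate block the genes called numbered 5 in SUM159 ALDHbr and 4 in SUM159 ALDHneg cells for NIF against DMSO and 7 in SUM159 under NIF for ALDHbr against ALDHneg. Calls over all genes rose with it from 473 to 1994, from 493 to 1970, from 3281 to 5270 and, under DMSO, from 3432 to 5388. In tests between lines the block added IDH1 for NIF in ALDHbr cells (adjusted p = 0.0156 by edgeR), TKT for the sorted populations under DMSO (adjusted p = 0.00289) and IDH1 under NIF (adjusted p = 0.00411). It moved no other count of the 9 genes by over 1.5 times. In SUM159 ALDHneg cells the count for NIF against DMSO was 3 by DESeq2 and with all 24 libraries in the fit, and 2 with RLE size factors, with library-size scaling or with at least 10 counts in every library. DESeq2 called 875 and 862 genes in all in SUM159 ALDHbr and ALDHneg cells. Only the groups compared gave 1 gene for SW620 ALDHbr against ALDHneg under DMSO, with 729 genes in all.

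A minimum absolute log2 fold change of 1 left 3 of the 9 genes in each comparison of the untreated lines and 0 in every other comparison that had a call. For NIF against DMSO it left few of all genes too. These were 68 (ALDHbr) and 64 (ALDHneg) of 14953 in SUM159, and 797 and 941 of 13953 in SW620. Leaving out each library in turn gave 1 to 2 genes for SUM159 ALDHneg NIF (192 to 584 genes in all). For ALDHbr against ALDHneg in SUM159 it gave 2 to 4 under DMSO (2543 to 3136 in all). Under NIF it gave 1 to 4 there (2371 to 2951 in all), and in SW620 under DMSO 1 to 6 (712 to 5487 in all). It gave 2 for SUM159 ALDHbr NIF (222 to 322 genes in all). For NIF in SW620 it gave 7 to 8 in ALDHbr (5053 to 7136 in all) and 8 in ALDHneg cells (5352 to 5490 in all). With library-size scaling the higher share of all calls was 39.4% in place of 49.5% for NIF in SW620 ALDHneg cells and 61.4% in place of 51.1% for SW620 ALDHbr against ALDHneg under NIF. Depth did not limit these genes, and 3 libraries per group limit the precision.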
